A study of Homo sapiens with 148 samples.

Results

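The 9 genes described here encode the enzymes and the targeting factor that write, copy and remove cytosine methylation: DNMT1, DNMT3A, DNMT3B, DNMT3L, UHRF1, TET1, TET2, TET3 and TDG. They were taken by name from a table of 49085 gene names in 50451 entries, and each of the 9 names had a single entry. The table came from RNA-seq of H9 human embryonic stem cells (hESCs), an established line carrying no engineered change (WT), and of cells derived from it. Of the 148 samples of the series, 12 were RNA-seq samples, 2 at each of 6 stages: undifferentiated hESCs, and DE, PGT, PP, PH and SC-β cells, which had all been put through pancreatic differentiation. DE is definitive endoderm, PGT primitive gut tube-like cells, PP pancreatic progenitors and SC-β organoids of stem cell-derived β cells, collected on days 4, 7, 14 and 35. The labels do not spell out PH or give its day, so it was kept as a separate stage and was not placed in the time order. All samples came from one cell line, which limits the series to one genotype.

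Methylation of cytosine in CpG dinucleotides is laid down de novo by DNMT3A and DNMT3B, whose activity is stimulated by the catalytically inactive DNMT3L. After replication, UHRF1 binds hemimethylated CpG and brings in DNMT1, which copies the mark onto the new strand. TET1, TET2 and TET3 oxidize 5-methylcytosine, and TDG excises the most oxidized forms so that base excision repair can restore an unmodified cytosine. DNMT3B is known for its high expression in pluripotent cells, and the balance between the DNMT3 and TET enzymes has been studied widely in the exit from pluripotency.

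Each value below is the authors' mean TPM, a transcript abundance scaled to one fixed total per library, over the 2 replicates of a stage. Replicate values were not part of the table, so no standard deviation, interval or test could be given, and a difference between stages has no replicate check. The TPM unit keeps no sequencing depth, so depth is unknown, and the precision of values under 1 TPM is unknown in particular. A log2 ratio is log2 of (TPM + 1) in one stage over (TPM + 1) in another, which understates the change of low genes, and a gene was called higher or lower at 2-fold. In bulk RNA, fewer cells of a type cannot be told apart from less RNA per cell.

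Several facts of the whole table bear on every ratio. Among names at 1 TPM or more in either stage, the median log2 ratio to hESCs was 0.58 for DE, 0.41 for PGT, 0.31 for PP, 0.28 for PH and 0.83 for SC-β. Rescaling each stage by its median ratio over 13938 names detected at 1 TPM or more in every stage brought these medians to between 0.11 and 0.47, and rescaled ratios are given below where they change a call or a sign. A small group of 6 structural RNA names took between 31.8% and 50.9% of the TPM total, with the lowest share in DE and the highest in PH.

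The stage labels were compared with defining markers. POU5F1, the pluripotency factor OCT4, was at 1449 TPM in hESCs and below 1 TPM in PP, PH and SC-β. NANOG, at 44.6 TPM in hESCs, was also below 1 TPM there. The other pluripotency markers did not follow them. SOX2 was at 133 TPM in hESCs, 1.70 TPM in PGT, 68.2 TPM in PP, 109 TPM in PH and 50.9 TPM in SC-β. LIN28A was at 724 TPM in hESCs, 169 TPM in PP, 0.0162 TPM in PH and 27.5 TPM in SC-β. SOX17 was at 96.1 TPM in DE, and INS (insulin) was at 298 TPM in SC-β, where GCG (glucagon) was higher still at 2793 TPM. PP carried PDX1 and NKX6-1, the defining pancreatic factors, at only 3.17 and 2.20 TPM. In PH, PDX1 was at 0.0173 TPM. The endodermal factors HNF4A, FOXA2 and GATA6 were at 0.292, 1.17 and 0.848 TPM there, against 3.90, 13.2 and 11.6 TPM in PP. Of the definitive endoderm markers, SOX17 and EOMES were listed at 0 in PH and CER1 was at 0.737 TPM. CXCR4, from the same list, went the other way, at 106 TPM in PH against 23.0 TPM in PP and 350 TPM in DE. The 4 neural progenitor markers PAX6, SOX1, HES5 and FABP7 summed to 161 TPM in PH and to between 0.623 and 21.6 TPM at the other stages, with none at 0 in PH. The 4 mesenchymal markers COL1A1, COL3A1, TWIST1 and PRRX1 summed to 470.3 TPM in PH and 1108 TPM in SC-β, against at most 45.1 TPM at the other 4 stages. PTF1A and SOX9, which neural as well as pancreatic progenitors express, were at 7.61 and 27.2 TPM in PH. The endocrine markers INS, GCG, CHGA and NEUROD1 were at 6.86, 27.2, 70.0 and 3.71 TPM in PH, against 6.93, 16.5, 215 and 4.16 TPM in PP. Because the PH markers were mixed and its name is not spelled out, it is called only by its label, and the part of other cell types in the PH and SC-β values was not tested. Endothelial markers summed to 199 TPM in DE, of which VWF gave 191 TPM, and to at most 20.8 TPM elsewhere, and the 4 blood markers summed to at most 1.94 TPM at any stage.

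DNMT3B, a de novo methyltransferase, was the highest of the 9 genes in hESCs and had the widest fall among them on the log2(TPM + 1) scale. Its level was 375 TPM in hESCs, 186 TPM in DE, 51.7 TPM in PGT, 20.8 TPM in PP, 59.5 TPM in PH and 24.1 TPM in SC-β. The levels stepped down from hESCs to PP, 18.0 times lower, while SC-β lay near PP and PH lay near PGT. In hESCs DNMT3B ranked 226th of the 16784 names at 1 TPM or more, and in PP it ranked 5495th of 19225. The log2 ratio to hESCs was -1.00 for DE, -2.83 for PGT, -4.11 for PP, -2.63 for PH and -3.91 for SC-β. On consecutive stages the gene fell by 1.83 on the log2 scale from DE to PGT and by 1.27 from PGT to PP, whereas PP and SC-β differed by 0.20 as deposited and by -0.06 after rescaling. DNMT3B lies on chromosome 20 at 32762385 to 32809359 on the plus strand (GRCh38, GENCODE 44), as 1 gene-level value that does not separate its catalytic from its inactive splice forms.

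DNMT3A, the other catalytic de novo enzyme, moved within a narrow range. It was at 47.5 TPM in hESCs, 56.0 TPM in DE, 73.1 TPM in PGT, 45.3 TPM in PP, 67.5 TPM in PH and 50.3 TPM in SC-β. PGT and PH were the highest stages and PP the lowest, and each log2 ratio to hESCs lay between -0.07 in PP and 0.61 in PGT, under the 2-fold limit. After rescaling, DE and SC-β moved from slightly above to slightly below hESCs, with log2 ratios of -0.24 and -0.43.

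DNMT3L, the catalytically inactive cofactor, was close to the lower end of the table at every stage. Its level was 1.15 TPM in hESCs, 0.244 TPM in DE, 0.0576 TPM in PGT and 0.0251 TPM in SC-β, and it was listed at 0 in PP and PH. The hESC value was thus the highest of the 6, and no later stage reached 1 TPM. With a pseudocount of 1 TPM its log2 ratio to hESCs was -0.79 in DE and between -1.11 and -1.03 at the other stages, a size that the pseudocount limits.

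Within the DNMT3 family the main transcript changed from DNMT3B to DNMT3A. DNMT3B made up 88.5% of the summed DNMT3 TPM in hESCs, 76.8% for DE, 41.4% for PGT, 31.5% for PP, 46.9% for PH and 32.3% for SC-β. The ratio of DNMT3B to DNMT3A was 7.90 for hESCs and 3.33 for DE, and it was below 1 at the 4 other stages: 0.707 for PGT, 0.459 for PP, 0.882 for PH and 0.478 for SC-β. Because both genes share a library, these ratios do not depend on the stage's scaling. The summed DNMT3 level went from 423 TPM in hESCs to 66.2 TPM at the PP stage and 74.5 TPM at the SC-β stage.

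**Figure D1:**
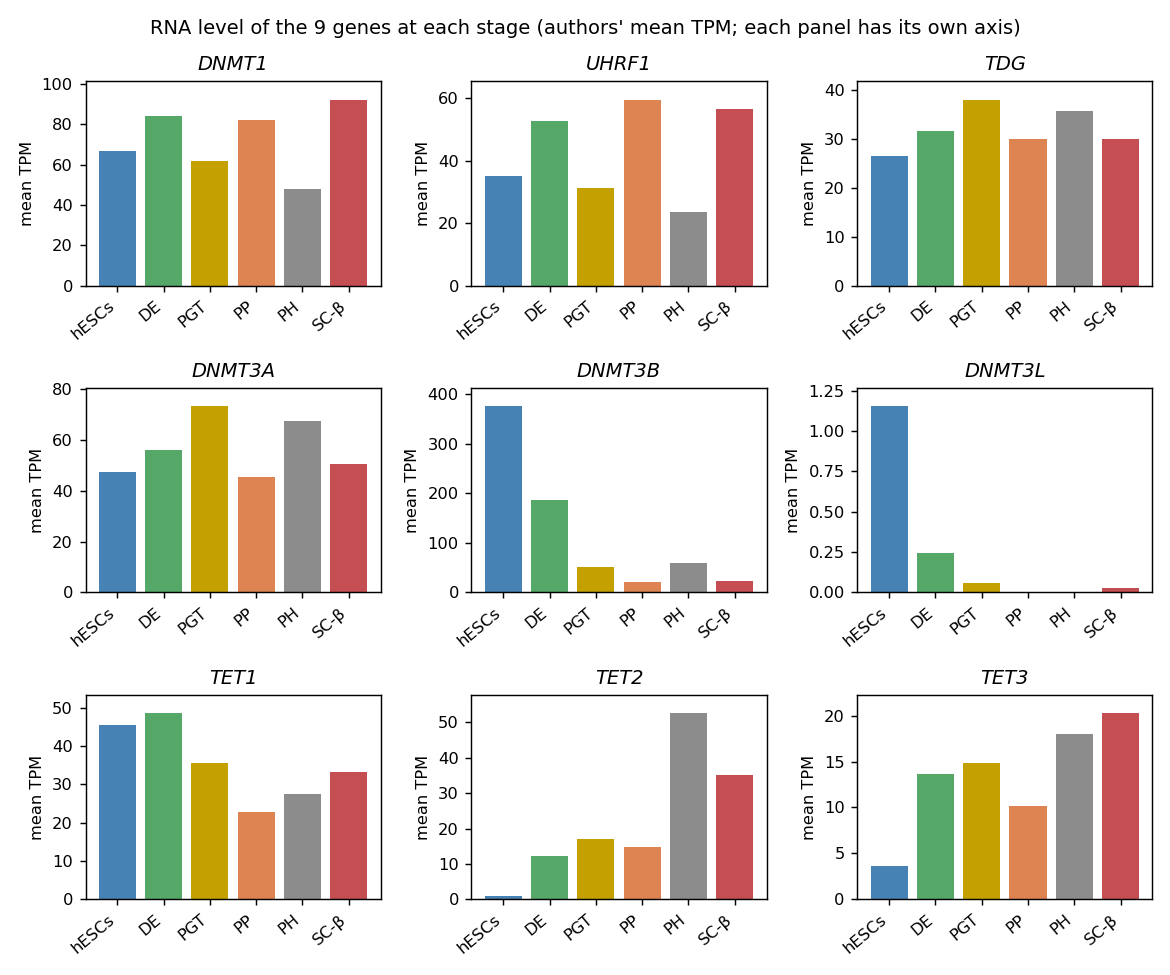
Authors' mean TPM of each of the 9 genes (1 panel per gene, each with its own vertical axis in TPM starting at 0) at the 6 stages, as bars without error bars because the table holds only the mean of 2 replicates. DNMT3B went from 375 TPM in hESCs to 20.8 TPM in PP, whereas TET2 went from 0.891 TPM in hESCs to 52.6 TPM in PH and 35.1 TPM in SC-β.

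The 3 TET genes were described next to the sequence before their transcription starts, because their levels at the hESC stage differed widely. TET1 was at 45.4 TPM there, TET3 at 3.66 TPM and TET2 at 0.891 TPM. The 250 bases upstream of the RefSeq start that coincides with the GENCODE gene start are shown for each (RefSeq, GRCh38.p14, plus strand, no base in an annotated exon), at chr10:68560087-68560336 for TET1, chr4:105145625-105145874 for TET2 and chr2:73984660-73984909 for TET3. Capitals mark matches, on either strand, to the searched motifs.
TET1: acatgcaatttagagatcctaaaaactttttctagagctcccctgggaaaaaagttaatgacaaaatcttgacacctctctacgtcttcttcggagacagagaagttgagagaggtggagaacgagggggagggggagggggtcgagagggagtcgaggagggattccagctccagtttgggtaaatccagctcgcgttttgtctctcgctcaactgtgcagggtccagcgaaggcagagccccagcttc
TET2: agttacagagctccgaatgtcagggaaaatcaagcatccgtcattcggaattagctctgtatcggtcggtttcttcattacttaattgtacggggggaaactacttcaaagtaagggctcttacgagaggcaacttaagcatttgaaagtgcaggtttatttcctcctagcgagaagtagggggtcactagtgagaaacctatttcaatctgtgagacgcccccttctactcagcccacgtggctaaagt
TET3: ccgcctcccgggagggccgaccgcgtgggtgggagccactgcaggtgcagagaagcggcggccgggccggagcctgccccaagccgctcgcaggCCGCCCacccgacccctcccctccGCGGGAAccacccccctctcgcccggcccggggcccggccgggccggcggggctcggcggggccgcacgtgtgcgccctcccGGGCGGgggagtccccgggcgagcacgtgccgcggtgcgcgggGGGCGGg

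Of the 3 stretches shown, that of TET3 was the richest in CpG. It held 37 CG dinucleotides and was 84.0% G or C, against 9 CG and 51.6% for TET1 and 10 CG and 45.6% for TET2. Among all 35116 windows of the same length the median was 11 CG, and TET3 lay at percentile 96.0, TET2 at 47.8 and TET1 at 45.9. The motifs searched on both strands were CCAAT (the box bound by NF-Y), GGGCGG (the GC box bound by SP1), TTCCCGC with TTGGCGC as forms of the E2F site, and the octamer-like ATGCAAA. TET3 held GGGCGG 3 times and TTCCCGC once in the letters shown, the TET1 and TET2 stretches held none of the 5, and 42.6% and 5.52% of all windows held GGGCGG and TTCCCGC. In the longer windows that run 50 bases past the start, TET2 also had 1 GGGCGG, which 45.0% of all such windows contained. A match is a description of the letters only, and all 3 genes have further RefSeq starts inside the gene. The 250 bases before the second TET2 start, 1001 bases into the gene and within annotated exons, held 34 CG (percentile 93.2), were 72.8% G or C and had GGGCGG 5 times, so the CpG-poor stretch shown is not the whole of the TET2 start region.

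TET2, a dioxygenase without the CXXC DNA-binding domain of TET1 and TET3, had the widest rise among the 9 genes on the same log2 scale. Its level was 0.891 TPM in hESCs, 12.1 TPM in DE, 17.2 TPM in PGT, 14.7 TPM in PP, 52.6 TPM in PH and 35.1 TPM in SC-β. The 5 differentiated stages were all above hESCs, with PH highest and DE, PGT and PP close to each other. The log2 ratio to hESCs was 2.80 for DE, 3.26 for PGT, 3.05 for PP, 4.83 for PH and 4.25 for SC-β, and rescaling left it between 2.47 and 4.94. Since the hESC value was under 1 TPM, the plain ratio of PH to hESCs, 59.1, is imprecise. From PP to SC-β the log2 ratio was 1.20 as deposited, 1.04 with totals taken without structural and mitochondrial RNAs, 0.98 without the top 100 names and 0.94 after rescaling, so whether this step passed 2-fold depended on the scaling. TET2 spans positions 105145875 to 105279816 of chromosome 4, plus strand, and the antisense name TET2-AS1 was at 0.0203 TPM in hESCs and between 1.25 and 3.88 TPM elsewhere. The library kit marked strand but the strand setting of the counting is not given in the sources used here, so reads of the pair may not be fully separated.

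TET3 also rose, from a low level. It was at 3.66 TPM in hESCs, 13.6 TPM in DE, 14.9 TPM in PGT, 10.2 TPM in PP, 18.0 TPM in PH and 20.3 TPM in SC-β. Each differentiated stage was more than 2-fold above hESCs, with log2 ratios of 1.65 for DE, 1.77 for PGT, 1.26 for PP, 2.02 for PH and 2.19 for SC-β, and of 1.06 to 2.04 after rescaling. PP was the lowest of the 5, and SC-β exceeded it by 0.93 on the log2 scale, just under the limit.

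TET1, the TET gene associated with pluripotent cells, was lower in PP than in hESCs but changed far less than DNMT3B. The values were 45.4 TPM in hESCs, 48.6 TPM in DE, 35.5 TPM in PGT, 22.7 TPM in PP, 27.4 TPM in PH and 33.2 TPM in SC-β. hESCs and DE were the 2 highest stages and PP the lowest. The PP ratio to hESCs was -0.97 on the log2 scale, just inside 2-fold, and -1.22 after rescaling, which put it past the limit. DE against hESCs was 0.10 as deposited and -0.38 after rescaling, so no direction is given for that step.

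The composition of the TET transcripts therefore differed between stages. TET1 made up 90.9% of the summed TET TPM in hESCs, 65.4% for DE, 52.5% for PGT, 47.7% for PP, 28.0% for PH and 37.5% for SC-β. The share of TET2 was 1.78% for hESCs, then 16.3% for DE, 25.4% for PGT, 30.9% for PP, 53.7% for PH and 39.6% for SC-β, and TET2 was above TET1 for PH and SC-β. TET3 held between 18.3% and 22.9% at the 5 differentiated stages and 7.33% in hESCs. The summed TET level ran from 47.5 TPM in PP to 98.0 TPM in PH, with 49.9 TPM in hESCs. Set against it, the summed DNMT3 level was 8.48 times the TET sum in hESCs, 3.26 times in DE, 1.85 times in PGT, 1.39 times in PP, 1.30 times in PH and 0.841 times in SC-β. These are sums of transcripts and give no measure of enzyme activity or of methylation.

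**Figure D2:**
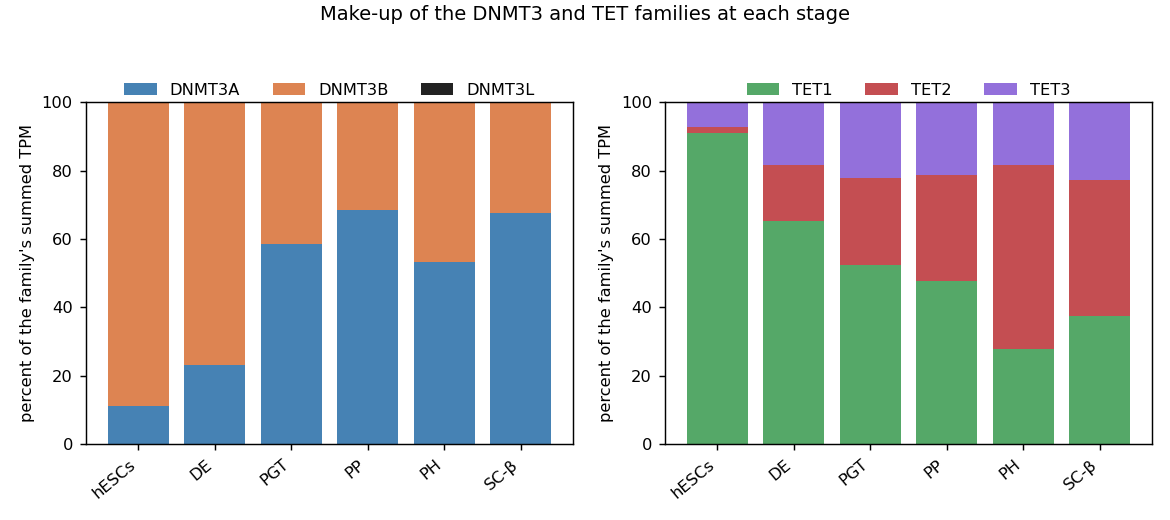
Stacked bars of the share of each gene in the summed TPM of its family (vertical axis in percent) at the 6 stages, for the DNMT3 genes and for the TET genes. DNMT3B went from 88.5% to 32.3% and TET1 from 90.9% to 37.5% between hESCs and SC-β, and the DNMT3L share, at most 0.272%, is too thin to be seen.

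DNMT1 and UHRF1, the maintenance pair, stayed expressed throughout and followed a different order of stages. DNMT1 was at 66.8 TPM in hESCs, 84.2 TPM in DE, 61.8 TPM in PGT, 82.2 TPM in PP, 47.7 TPM in PH and 92.1 TPM in SC-β. UHRF1 was at 35.3 TPM in hESCs, 52.8 TPM in DE, 31.2 TPM in PGT, 59.6 TPM in PP, 23.5 TPM in PH and 56.5 TPM in SC-β. In both genes DE, PP and SC-β were the 3 highest stages, followed by hESCs and PGT, and PH was the lowest. Neither gene passed 2-fold against hESCs at any stage, with log2 ratios between -0.48 and 0.46 for DNMT1 and between -0.56 and 0.74 for UHRF1. The ratio of UHRF1 to DNMT1 stayed between 0.494 in PH and 0.725 in PP. Against hESCs the DNMT1 log2 ratios of 0.33 in DE and 0.46 in SC-β changed sign after rescaling, to -0.15 and -0.06.

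The pair was lower in PH than in PP and SC-β. UHRF1 had a log2 ratio of -1.30 in PH against PP, past 2-fold, and of -1.23 against SC-β, and DNMT1 of -0.77 and -0.94. Other factors that act with them at the replication fork were compared between PH and PP. HELLS, a chromatin remodeler needed for maintenance methylation, went from 118 TPM in PP to 33.9 TPM in PH (log2 ratio -1.77), and its activator CDCA7 from 23.0 to 10.8 TPM (-1.03). PCNA, the sliding clamp that DNMT1 binds, went from 222 to 79.0 TPM (-1.48), and CDCA7L, a paralog of CDCA7, from 55.1 to 11.7 TPM (-2.15). Of the 8 maintenance partners 4 were lower and 0 higher by 2-fold, where 12.8% and 11.5% of expressed names were, with a median of -1.01, while the median over all names at 1 TPM or more was -0.10. After rescaling 3 of the 8 were lower, since CDCA7 came to -0.82. USP7, a deubiquitinase that stabilizes DNMT1 and UHRF1, was at 64.9 TPM in PP and 84.8 TPM in PH and so did not share this direction.

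Genes of DNA replication and S phase were, as a sum, lowest in PH like the maintenance pair. Of the 15 genes on this list, 11 were lower and 0 higher in PH than in PP, against 12.8% and 11.5% of expressed names. The 15 had a median log2 ratio of -1.36, and 9 of them were lower after rescaling. MCM6, a subunit of the replicative helicase, went from 52.7 TPM in PP to 17.5 TPM in PH, and CDC6, which loads that helicase, from 27.0 to 5.39 TPM. The others at least 2-fold lower were MCM2, MCM3, MCM4, MCM5, RRM2, TYMS, CDC45, GINS2 and CCNA2. Against hESCs, SC-β had 1 gene higher, CCNE2 (1.54), and 3 lower, MCM5 (-1.34), CDC6 (-1.25) and MCM6 (-1.00). Of expressed names 42.4% were higher and 7.08% lower in SC-β. After rescaling 6 of the 15 genes were lower. MKI67, the proliferation marker, was at 17.3 TPM in PP and 24.9 TPM in PH, and did not follow the others. The list summed to 1351 TPM in hESCs, 1188 TPM in DE, 740.4 TPM in PGT, 1052 TPM in PP, 467.5 TPM in PH and 1057 TPM in SC-β. Its highest stage was thus hESCs, where DNMT1 and UHRF1 were 4th of the 6 stages, so the order of stages was shared only in part. The neural and mesenchymal markers given above also differed between PP and PH, and their part in the lower level of UHRF1 was not tested.

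**Figure D3:**
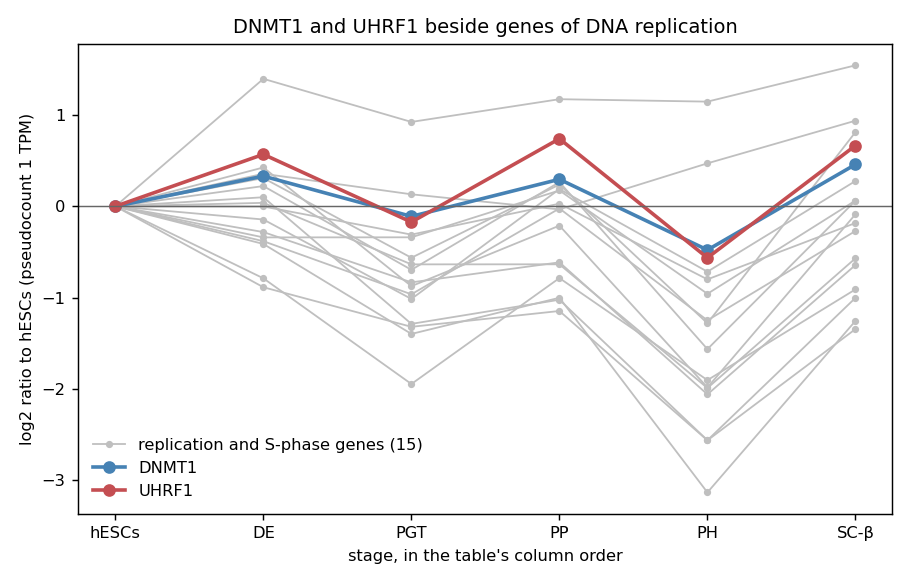
Log2 ratio to hESCs (vertical axis, with a pseudocount of 1 TPM) of DNMT1 and UHRF1 as thick coloured lines and of 15 DNA replication and S phase genes as thin grey lines, at the 6 stages in the table's column order, without error bars. PH was the lowest stage of both DNMT1 (-0.48) and UHRF1 (-0.56), where 10 of the 15 grey lines lay 2-fold or more below hESCs and 1, CCNE2, lay above by as much. Of expressed names 18.9% were lower and 27.3% higher in PH than in hESCs by this limit.

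UHRF2, the paralog of UHRF1, had another profile. It was at 22.3 TPM in hESCs, 56.9 TPM in DE, 55.6 TPM in PGT, 44.7 TPM in PP, 45.7 TPM in PH and 49.9 TPM in SC-β. hESCs were the lowest stage, and the ratio of UHRF1 to UHRF2 was 1.58 for hESCs, then 0.928 for DE, 0.561 for PGT, 1.33 for PP, 0.515 for PH and 1.13 for SC-β. The log2 ratio of UHRF2 in SC-β to hESCs was 1.13 as deposited and 0.62 after rescaling. Of expressed names 42.4% were at least 2-fold higher in SC-β than in hESCs and 7.08% lower. Of the 8 maintenance partners UHRF2 was the 1 at least 2-fold above hESCs in SC-β as deposited, and CDCA7L (-1.66) the 1 at least 2-fold below. After rescaling 0 were above and 2 below by that limit.

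TDG, the glycosylase that completes active demethylation, varied least of the 9 genes on the log2(TPM + 1) scale as deposited. It was at 26.5 TPM in hESCs, 31.6 TPM in DE, 38.0 TPM in PGT, 30.0 TPM in PP, 35.7 TPM in PH and 30.0 TPM in SC-β. All log2 ratios to hESCs lay between 0.17 and 0.50 as deposited, and rescaling gave values from -0.33 to 0.39, so no direction is given. The rescaled ratios of DNMT1 had a narrower range, from -0.50 in PH to 0.05 in PP, so the ranking depended on the scaling. Its processed copy TDGP1 was at no more than 0.519 TPM at any stage. TDG lies on chromosome 12 at 103965822 to 103988874, plus strand.

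Counted against all names, the share of the 9 genes that was higher than in hESCs lay near or below that of expressed names. The share that was lower lay near it in PH and above it in DE, PGT, PP and SC-β. These shares rest on counts of 1 or 2 genes. In DE, 2 of 9 (22.2%) were at least 2-fold higher than in hESCs, against 12.9% of all names and 28.2% of names at 1 TPM or more in either stage, and 1 of 9 was lower, against 2.55% and 5.55%. In PGT 2 were higher, against 10.1% and 23.4% of names, and 2 lower, against 4.34% and 10.0%. In PP 2 were higher (7.98% and 18.9%) and 2 lower (4.06% and 9.63%). In PH 2 were higher (12.1% and 27.3%) and 2 lower (8.35% and 18.9%). In SC-β 2 were higher (22.2% and 42.4%) and 2 lower (3.70% and 7.08%). The genes above were TET2 and TET3 each time, and the genes below were DNMT3B in DE and DNMT3B with DNMT3L afterwards. DNMT3L was at no more than 1.15 TPM at any stage, so its part in the lower counts rests on values near or under 1 TPM. The median of the 9 log2 ratios to hESCs was 0.25 for DE, -0.11 for PGT, 0.17 for PP, -0.48 for PH and 0.17 for SC-β, below the medians of expressed names given above.

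Between later stages 1 to 3 of the genes passed 2-fold in a comparison. From DE to PGT 0 were higher and 1, DNMT3B, was lower, against 2.30% and 4.92% of all names and 4.94% and 10.6% of those at 1 TPM or more. From PGT to PP 0 were higher and 1, again DNMT3B, was lower, against 2.74% and 3.25% of all names and 6.30% and 7.46% of those at 1 TPM or more. From PP to SC-β 1, TET2, was higher and 0 were lower, against 10.6% and 0.939% of all names and 20.7% and 1.84% of those at 1 TPM or more. PH was above PP for 2, DNMT3B and TET2, and below it for 1, UHRF1, against 5.14% and 5.73% of all names and 11.5% and 12.8% of those at 1 TPM or more. PH was above SC-β for DNMT3B (log2 ratio 1.27) and below it for UHRF1 (-1.23), 1 each, against 2.41% and 14.7% of all names and 4.60% and 28.1% of those at 1 TPM or more. After rescaling the UHRF1 ratio of PH to SC-β was -0.75 and the TET2 ratio went from 0.57 to 1.06.

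**Figure D4:**
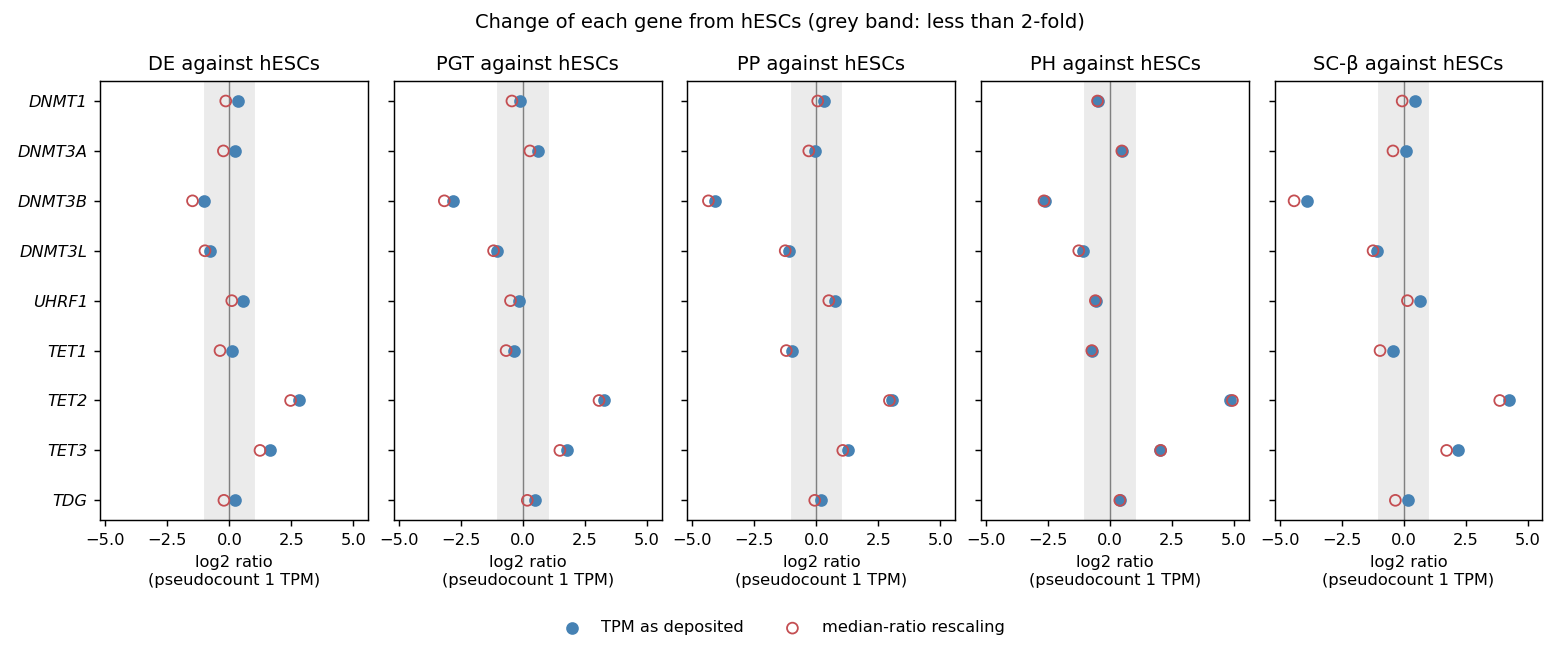
Log2 ratio of each of the 9 genes to hESCs in DE, PGT, PP, PH and SC-β, from the authors' mean values and without error bars, as filled points for TPM as deposited and open points after median-ratio rescaling. The grey band marks ratios under 2-fold. DNMT3B reached -4.11 in PP and TET2 4.83 in PH, whereas DNMT1, DNMT3A, UHRF1, TET1 and TDG stayed between -0.97 and 0.74 as deposited.

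Among readers of methylated CpG, 5 of 10 were at least 2-fold above hESCs in SC-β and 0 at least 2-fold below, near the 42.4% and 7.08% of expressed names, with a median log2 ratio of 1.01 where that of expressed names was 0.83. MBD6 went from 1.22 to 14.8 TPM (2.83) and MBD5 from 11.7 to 51.2 TPM (2.04). ZBTB4, a zinc finger protein that binds methylated CpG (1.54), and MBD1 (1.06) were also above. After rescaling 3 of 10 were above, with a median of 0.52. By the same limit 5 of the 10 were above hESCs as deposited in both DE and PGT, against 28.2% and 23.4% of expressed names. Both PP and PH had 4 above, against 18.9% and 27.3% of such names. After rescaling DE had 2, PGT 3, PP 1 and PH 4. At the 5 differentiated stages 0 were below by 2-fold or more, where between 5.55% and 18.9% of expressed names were as deposited.

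Genes that supply the TET enzymes with 2-oxoglutarate, or act on their products or protein, moved in both directions. Of 10, 3 were higher and 1 lower in SC-β than in hESCs, where 42.4% and 7.08% of expressed names were, and 2 were higher and 1 lower after rescaling. IDH1, the cytosolic isocitrate dehydrogenase that makes 2-oxoglutarate, fell from 726 to 120 TPM (-2.59), and IDH2, its mitochondrial counterpart, rose from 29.4 to 105 TPM (1.81). D2HGDH, which removes the inhibitor D-2-hydroxyglutarate, rose from 2.54 to 11.0 TPM (1.76). OGT, the glycosyltransferase that binds TET proteins, rose from 46.1 to 113 TPM (1.28 as deposited, 0.77 after rescaling). CXXC4, also called IDAX, which binds TET2 protein, was at 1.90 TPM in hESCs, 9.71 TPM in DE, 34.3 TPM in PGT, 16.1 TPM in PP, 23.4 TPM in PH and 4.20 TPM in SC-β, so its highest stage was PGT. In PH it was above hESCs (3.07), and IDH1 (-2.68) and IDH3A (-1.19) were below.

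The methyl donor S-adenosylmethionine is made through the methionine and folate cycles. Of 16 genes listed around the supply and use of this donor, 3 were higher and 2 lower in SC-β than in hESCs. In PH 1 was higher and 6 were lower. The shares of expressed names were 42.4% higher and 7.08% lower in SC-β, and 27.3% and 18.9% in PH. After rescaling the balance in SC-β turned, to 1 higher and 4 lower, while PH had 1 and 7. SHMT2, the mitochondrial serine hydroxymethyltransferase, fell from 180 to 72.0 TPM in SC-β (-1.31), and CBS, which takes homocysteine out of the cycle, from 18.2 to 6.56 TPM (-1.35). MTR, the methionine synthase, went from 12.2 to 30.7 TPM (1.26, and 0.77 after rescaling), AHCYL2 from 8.06 to 20.9 TPM (1.27, and 0.79), and NNMT from 0.00875 to 1.38 TPM (1.24). In PH MTHFD1, a folate-cycle enzyme, was at 17.2 TPM against 112 TPM in hESCs (-2.63), and AHCY, which clears S-adenosylhomocysteine, at 113 TPM against 292 TPM (-1.37). SHMT1 (-1.79), CBS (-1.48), BHMT (-1.16) and SHMT2 (-1.09) were the others below and NNMT (1.56) the one above.

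The 12 base excision repair genes included other glycosylases as well as genes that act after TDG. Of these 12 genes 1 was higher and 0 lower in SC-β against hESCs, and 1 was higher and 3 lower in PH. Of expressed names 42.4% were higher and 7.08% lower in SC-β, and 27.3% and 18.9% in PH. NEIL1, a glycosylase, went from 3.89 to 16.7 TPM in SC-β (1.86). In PH PARP1, a sensor of strand breaks, was at 78.0 TPM against 273 TPM in hESCs (-1.79), APEX1, the abasic site endonuclease, at 32.5 TPM against 95.7 TPM (-1.53), and NTHL1 at 15.7 TPM against 35.5 TPM (-1.13). OGG1, which removes oxidized guanine, was the one above, at 24.1 TPM against 10.9 TPM (1.07). After rescaling, 3 of the 12 were lower in SC-β.

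Profiles were also compared without a list. For each gene the names with the nearest centred log2 profile over the 6 stages were sought among 14720 names at 5 TPM or more in at least 1 stage. UHRF1 lay nearest to LIG1, the replicative DNA ligase, at a distance of 0.258 log2 units, and DNMT1 nearest to NUP98, a nuclear pore protein, at 0.125. TDG lay nearest to SMURF2, a ubiquitin ligase, at 0.111, TET1 to RBM34 at 0.144, DNMT3A to TBC1D17 at 0.199 and TET3 to AKAP9 at 0.251. DNMT3B and TET2 lay further from their nearest names, SLC7A5, an amino acid transporter, at 1.08, and SCARNA21, a small Cajal body RNA, at 0.523. The profiles were not scaled to equal range, so this distance grows with the range of a gene. Pearson correlations over the 6 stages were 0.973 for DNMT3B with SLC7A5, 0.991 for TET2 with SCARNA21 and 0.968 for TDG with SMURF2. The next names in distance were MIR4737 and ABHD12 for DNMT1, RTKN2 and EIF2AK2 for UHRF1, and PSAP and SMURF2 for DNMT3A. They were TRAPPC8 and SNORD116-16 for TET1, PKNOX2 and EFNB1 for TET2, YJEFN3 and HERC2P9 for TET3, and ZNF830 and TBP for TDG. For DNMT3B they were POU5F1P4, a copy of POU5F1 whose reads may belong to its parent, and FGF13-AS1, and SNORD116-16 and HERC2P9 also have near-identical copies. These distances describe 6 mean values per gene and say nothing of shared control. For DNMT3L, whose profile the pseudocount flattens, the nearest were XPOT, MARS2 and ACTR6.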

How the data were processed

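Total RNA of H9 hESCs and their derivatives was depleted of ribosomal RNA and made into strand-specific libraries. The labels name both a ribosomal RNA removal kit and an mRNA library kit. The authors aligned reads with HISAT2 2.2.0 to hg38, computed TPM per gene with StringTie 2.1.6, and deposited the mean TPM of 2 replicates per stage. The annotation and the strand setting are not given in the sources used here, and 0 columns were left unmapped.

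Stages were assigned from the labels. Entries sharing a name (231 names) were summed. Ratios were taken as log2(TPM + 1), with a 2-fold limit, in 10 comparisons, using Python 3.11.15, numpy 2.4.6 and pandas 2.3.3, and the code was tested on simulated data. The design foresaw values described without a test, as only means exist. Gene positions came from GENCODE 44. Promoter windows came from RefSeq (GRCh38.p14): 8 of the 9 genes had one, 19 windows in all, and the 250 bases before the start were printed while motif shares were computed over both 250 and 300 bases. Protein features were not analysed here.

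The members and lists were chosen with earlier results of these data known. Named genes were the 9 members, list genes at the extremes or past 2-fold in a described comparison, and the nearest profiles, where clone names, mitochondrial genes and the members were left out. List genes past 2-fold are named mainly for SC-β and PH against hESCs and PH against PP, and a few are not reported here. Alternatives were a pseudocount of 0.1 TPM, median-ratio rescaling, totals without structural and mitochondrial RNAs or without the top 100 names, the highest entry of a repeated name, a 4-fold limit, and names at 1 TPM or more.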

Additional observations from a re-analysis of the deposited data

How the results depend on the processing

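No paired analysis was possible because the deposited columns hold the mean of both replicates of a stage, and for the same reason no replicate could be left out. Across 88 log2 ratios of the 9 genes and 440 recomputed values, 426 stayed on the same side of 2-fold, 5 dropped below it, 9 passed it and 0 called values changed sign, while 30 values under 2-fold did. For the 20 counts of genes, 112 of 140 recomputed values stayed within 1.5 times and 28 moved.

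With a 4-fold limit the counts against hESCs became 1 higher and 0 lower in DE, 1 and 1 in PGT, 1 and 1 in PP, and 1 lower in PH and in SC-β. At that limit 0 genes were called in any comparison between later stages. With a pseudocount of 0.1 TPM, 2 genes were lower in DE than in hESCs and 2 lower in PGT than in DE, DNMT3L being the added one. Without structural and mitochondrial RNAs, 2 were lower in DE than in hESCs, 1 (UHRF1) was higher in PP than in PGT, and 0 were lower in PH than in SC-β. Without the top 100 names, 2 were lower in DE, 1 higher in PP than in PGT, 0 higher in SC-β than in PP, and 2 higher and 0 lower in PH than in SC-β. Median-ratio rescaling gave 0 higher in SC-β than in PP, and 2 higher and 0 lower in PH than in SC-β, as TET2 passed the limit and UHRF1 did not. DNMT3B at -1.00 in DE lies at the limit itself. Depth is unknown, which limits DNMT3L and the hESC value of TET2 most.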

Other observations

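Germline genes known to be held silent by promoter methylation stayed near 0. Of 14 names found, between 12 and 14 were under 1 TPM at each stage, and another listed name, GAGE1, was not found. Of all 49085 names, between 16784 in hESCs and 24571 in SC-β were at 1 TPM or more. A level under 1 TPM was thus common among all names. BRDT, a testis bromodomain protein, reached 4.06 TPM in DE, against 0.319 TPM in hESCs, and was listed at 0 in PGT, PP and SC-β. STK31, a testis kinase, was at 1.78 TPM in DE, 1.63 TPM in PGT and 1.00 TPM in PP. SYCP3, a synaptonemal complex protein, was at 2.83 TPM in SC-β and 0.466 TPM in hESCs. 

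DPPA3, a maternal factor that displaces UHRF1 from chromatin, was at 0.566 TPM in hESCs, 2.06 TPM in DE, 7.37 TPM in PGT and 0.0472 TPM in PH, and was listed at 0 in PP and SC-β. Among factors involved in imprinting, TRIM28 had 331 TPM in hESCs against 253 TPM in SC-β. ZNF445 went from 8.99 to 30.1 TPM (log2 ratio 1.64) and KDM1B, a histone demethylase, from 5.25 to 17.6 TPM (1.58), while ZFP57 was at or under 0.606 TPM at each stage.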
